A study of Mus musculus with 18 samples.

Results

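Thrsp, Me1, Gpd2, Klf9, Hr and Bcl3 are genes of the liver whose transcripts are known to rise with thyroid hormone (TH). Their array probes were found by gene name or by the current symbol of the probe's accession, and 7 probes were found for the 6 genes, out of 16535 genes with a matched symbol on the array. Klf9 had 2 probes, and the other genes had 1 each. All 7 probes passed the limit for low signals and were tested.

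The livers were from male C57BL/6 pups at postnatal day (PND) 15, 5 control and 5 hypothyroid. Dams were 8 weeks old and sires 10 weeks at mating. All dams and litters drank 1% sugar water. From PND 12 the water of the hypothyroid group also held 0.05% methimazole (MMI) and 1% perchlorate, so that exposure lasted 3 days and reached the pups through the dam and the water. Per the methods, 1 male pup was taken from each litter, and pups of both groups were injected with PBS hours before they were killed. Each liver RNA was hybridised with a common mouse reference RNA on a 2-colour array, and a level is given here as log2 of liver over reference. A difference of 1 in this value is a 2-fold difference, and values of different probes cannot be compared with each other.

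TH acts in liver through nuclear receptors that bind DNA with the retinoid X receptor, and genes that TH induces are held down by corepressors when the hormone is low. MMI blocks the thyroid peroxidase that makes the hormone, and perchlorate blocks uptake of iodide by the thyroid. In liver the hormone is best known for inducing enzymes of fat synthesis and of the shuttles that carry reducing power into mitochondria. Thrsp and Me1 are textbook examples of the former and Gpd2 of the latter, while Klf9, Hr and Bcl3 encode regulators of transcription.

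Some arrays stood apart from the rest. On slide 141, which held control animal 832 and hypothyroid animal 576, the log2 ratios with the dyes as labelled correlated at -0.974 and -0.978 with the mean of the other slides. The labels and methods give Cy5 to liver on every array. The channels of this slide were exchanged all the same. Its arrays then correlated at 0.974 and 0.978 with the other slides. Hepatocyte genes, given below, then averaged 4.03 in animal 832 and 4.11 in animal 576. The exchange rests on such values and on no label. The changes of the 6 genes, their counts, pairs and correlations, and the medians of the related lists are therefore also given without the slide and with the dyes as labelled. The array of control animal 616 had compressed ratios, with an SD of 0.733 against 1.01 to 1.10 on the other arrays, and correlated at 0.882 with other slides against 0.974 or more. Pancreatic acinar genes (15 listed, 13 tested) averaged 4.08, 4.10 and 2.54 in control animals 832, 522 and 616, and 0.405 to 0.530 in the other 7 livers. Adipocyte genes (8 listed, 5 tested) averaged 2.72 in hypothyroid animal 311 and 0.740 to 1.08 in the other 9 livers. Ucp1, which marks brown fat, was above the limit on 2 of 10 arrays, and in animal 311 it was at 4.03. Hepatocyte genes (9 listed, 7 tested) averaged 2.66 in animal 616 and 3.95 to 4.74 in the others, so the liver identity of the samples was seen in all of them. All 7 tested hepatocyte genes had a higher mean in hypothyroid liver, where the members were mostly lower, with a median change of 0.61 and of 0.34 without animal 616. Of these 7, 2 were higher at an unadjusted limma p below 0.05, against 3.34% of all probes, and 0 passed the adjusted threshold. The part of this shift in the results below was not tested. In bulk RNA, fewer cells of a type and less RNA per cell cannot be told apart.

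The stretch before the transcription start is shown for the 4 genes with the lower levels in hypothyroid liver and for Klf9. RefSeq (GRCm38.p6) gave a start for 5 of the 6 genes, Hr being the exception, and the windows of 250 bases before the 7 starts were searched on both strands. Capitals mark CCAAT boxes (CCAAT), GC boxes (GGGCGG) and, in Me1, the elements GGGTTA and AGGACA with 4 bases between them, and a match is a description of letters only. The windows, read 5′ to 3′ on the strand of the gene, lie at chr7:97417551-97417800 (minus strand) for Thrsp, chr9:86695915-86696164 (minus) for Me1, chr2:57237428-57237677 (plus) for Gpd2, chr19:23140976-23141225 (plus) for Klf9 and chr7:19822825-19823005 (minus) for Bcl3. For Bcl3 the 181 bases outside the annotated gene are printed.
Thrsp: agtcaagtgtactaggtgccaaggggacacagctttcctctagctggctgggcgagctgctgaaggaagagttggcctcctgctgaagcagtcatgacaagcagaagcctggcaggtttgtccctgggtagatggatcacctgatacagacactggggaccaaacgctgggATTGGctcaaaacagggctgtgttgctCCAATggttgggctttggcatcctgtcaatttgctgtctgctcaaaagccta
Me1: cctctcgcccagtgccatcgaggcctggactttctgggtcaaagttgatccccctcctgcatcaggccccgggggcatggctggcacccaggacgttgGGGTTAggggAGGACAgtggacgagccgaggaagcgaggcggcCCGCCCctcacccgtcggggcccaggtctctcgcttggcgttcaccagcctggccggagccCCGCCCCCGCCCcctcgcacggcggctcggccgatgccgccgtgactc
Gpd2: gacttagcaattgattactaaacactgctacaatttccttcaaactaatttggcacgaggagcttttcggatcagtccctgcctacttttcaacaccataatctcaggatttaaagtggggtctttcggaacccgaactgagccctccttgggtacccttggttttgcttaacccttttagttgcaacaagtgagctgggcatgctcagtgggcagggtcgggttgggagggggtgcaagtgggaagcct
Klf9: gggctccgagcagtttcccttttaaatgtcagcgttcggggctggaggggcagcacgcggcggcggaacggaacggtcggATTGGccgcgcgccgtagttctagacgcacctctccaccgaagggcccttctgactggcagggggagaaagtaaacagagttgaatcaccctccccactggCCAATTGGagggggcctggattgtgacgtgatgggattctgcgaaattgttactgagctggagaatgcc
Bcl3: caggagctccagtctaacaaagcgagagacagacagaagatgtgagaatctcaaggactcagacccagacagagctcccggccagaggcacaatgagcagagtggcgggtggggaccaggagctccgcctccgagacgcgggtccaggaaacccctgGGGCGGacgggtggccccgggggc

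The letters AGGTCA, the consensus element that TH receptors bind, were in 0 of the 7 windows and in 14% of all 32851 windows. A direct repeat of these letters with a spacer of 4 bases, the arrangement called DR4, was in 5 windows of the whole table (0.0152%) and in none of these. The Me1 window held GGGTTA and AGGACA 4 bases apart, starting 152 bases before the start. This pair was searched because it is known from the malic enzyme gene, so finding it there is no result, and it was in 1 of the 32851 windows. GC boxes were in 32.7% of all windows, with 3 in the first window of Me1, where a pair lies side by side, and 3 in that of Bcl3, of which 1 is in the printed bases. CCAAT boxes were in 33.8% of all windows, with 2 in that of Thrsp and 3 in that of Klf9, where 2 on opposite strands overlap. The first Gpd2 window held none of these letters and was 48.8% G and C, against 72.0% for Me1. An absent match says only that the letters are not in this window, and elements farther away were not searched.

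Against controls, the levels of Thrsp, Bcl3, Gpd2 and Me1 were lower in hypothyroid liver, at 44.6%, 55.6%, 66.1% and 71.9% of control, while those of Klf9 and Hr were at 85.0% and 101%. By limma with Benjamini-Hochberg adjustment over 32053 probes, 0 of the 6 genes had an adjusted p below 0.05, and over all probes 0.00624% did. At an unadjusted limma p below 0.05, 4 of 6 genes were lower, against 4.08% of all probes, and for 2 of 6, Me1 and Bcl3, every hypothyroid liver was below every control liver, against 1.00% of all probes. The members were chosen with earlier results of these data known, so these counts beside the shares are a description and no test of the list. The median change of the 6 genes was -0.54 on the log2 scale and that of all probes was -0.01. Without control animal 616 these counts were 1, 4 and 4 of 6. Of the 32544 probes then tested, 30 had a limma adjusted p below 0.05 and 7.33% an unadjusted one, in either direction. Groups of fewer arrays separate more easily, so the 1.00% does not carry over to this setting or to that without slide 141. No share of all probes without overlap is given for either. Without slide 141 the counts were 0, 4 and 2, when 7.34% of all probes had an unadjusted p below 0.05 in either direction. With the dyes of slide 141 as labelled they were 0, 0 and 0, when 0.338% of all probes had an unadjusted p below 0.05 in either direction. With median centring in place of loess they were 0, 1 and 0, when 0.989% of all probes did.

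Thrsp encodes Spot 14, a small protein of lipogenic tissues that promotes fatty acid synthesis. Its log2 ratio was 2.40, 2.27, 2.10, 1.01 and 1.63 in control animals 881, 832, 522, 616 and 391. It was 1.31, 0.54, 1.20, 0.07 and 0.48 in hypothyroid animals 891, 576, 311, 723 and 626. The groups overlapped only through control animal 616, which lay below hypothyroid animals 891 and 311. The mean was 1.88 ± 0.57 (SD, n = 5) in control and 0.72 ± 0.52 (SD, n = 5) in hypothyroid liver, a change of -1.16 with a limma standard error of 0.30 and an adjusted p of 0.347. The 95% interval ran from 28.3% to 70.4% of control. An exact two-sided permutation test over all ways to split the 10 arrays gave p = 0.0238. The change ranked 27 from the lowest of 32053 probes, 47 without slide 141 and 292 with the dyes of that slide as labelled. Within the 4 slides that held 1 animal of each group the difference was -1.09, -1.73, -0.90 and -0.53, lower in 4 of 4.

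Without control animal 616 the Thrsp change was -1.38 with a limma adjusted p of 0.0768, and the groups no longer overlapped. It was -1.02 without slide 141 and -0.47 with the dyes of that slide as labelled. Fat is a site of Thrsp expression, and the value of animal 311, the liver with adipocyte transcripts, was among the higher hypothyroid ones. A part of fat in the Thrsp values was not tested. Without animal 311 the change was -1.28. The probe was well above background in liver on 5 control and 4 hypothyroid arrays. In the reference channel it was well above background on 4 and 0 arrays, so its ratios rest on a dim reference.

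Me1 encodes cytosolic malic enzyme, which makes NADPH for fatty acid synthesis. Its log2 ratio was -1.29, -1.33, -1.40, -1.09 and -0.96 in controls 881, 832, 522, 616 and 391. In hypothyroid animals 891, 576, 311, 723 and 626 it was -1.45, -1.60, -1.79, -1.90 and -1.70. All 5 hypothyroid livers lay below all 5 controls, with -1.40 and -1.45 as the nearest values. The mean was -1.21 ± 0.18 (SD, n = 5) in control and -1.69 ± 0.17 (SD, n = 5) in hypothyroid liver, and the change was -0.48 (limma standard error 0.11, adjusted p = 0.274). The 95% interval ran from 61.1% to 84.8% of control. By exact two-sided permutation p was 0.00794, which is the lowest value 5 against 5 can reach. Differences within slides were -0.17, -0.26, -0.39 and -0.61, lower in 4 of 4. The change was -0.44 without animal 616, -0.53 without slide 141, -0.45 without animal 311 and -0.37 with the dyes of slide 141 as labelled. With median centring it was -0.23 and the groups overlapped.

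Gpd2 encodes the mitochondrial glycerol-3-phosphate dehydrogenase, which passes electrons from cytosolic NADH to the respiratory chain. Its log2 ratio was 0.53, 0.58, 0.62, -0.25 and 0.96 in controls 881, 832, 522, 616 and 391. In hypothyroid animals 891, 576, 311, 723 and 626 it was -0.06, 0.01, -0.47, 0.05 and -0.06. As with Thrsp, the overlap came from control animal 616, since the other 4 controls were at 0.53 or more and no hypothyroid liver exceeded 0.05. The mean was 0.49 ± 0.45 (SD, n = 5) in control and -0.11 ± 0.21 (SD, n = 5) in hypothyroid liver, so that it was lower by -0.60 (limma adjusted p = 0.537, standard error 0.20). The 95% interval was 49.0% to 89.1% of control, with p = 0.0397 by exact two-sided permutation. Within slides the difference was -0.59, -0.57, -1.10 and 0.19, and the slide with the opposite sign was that of animal 616.

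Without animal 616 the Gpd2 change was -0.78 and passed the threshold, with a limma adjusted p of 0.0450. The change was -0.60 without slide 141, -0.51 without animal 311, -0.37 with the dyes of slide 141 as labelled and -0.36 with median centring. Animal 311, the liver with adipocyte transcripts, had the lowest Gpd2 value, and a link of Gpd2 to those transcripts was not tested.

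Bcl3 encodes a nuclear member of the I-kappaB family that binds NF-kappaB p50 and p52 and can activate or repress their targets. Its log2 ratio was 0.79, 1.28, 0.89, 0.39 and 0.44 in controls 881, 832, 522, 616 and 391. In hypothyroid animals 891, 576, 311, 723 and 626 it was -0.06, 0.15, -0.33, -0.01 and -0.19. The highest hypothyroid liver, at 0.15, was below the lowest control, at 0.39. The mean was 0.76 ± 0.36 (SD, n = 5) in control and -0.09 ± 0.18 (SD, n = 5) in hypothyroid liver, which differ by -0.85 (limma adjusted p = 0.166, standard error 0.16). This adjusted p was the smallest of the 6 genes. The 95% interval was 43.4% to 71.4% of control, with p = 0.00794 by exact two-sided permutation. Differences within slides were -0.86, -1.13, -1.22 and -0.58, lower in 4 of 4.

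The Bcl3 change was -0.94 without animal 616, with a limma adjusted p of 0.0517, and -0.78 without slide 141. It was -0.79 without animal 311 and -0.40 with the dyes of slide 141 as labelled. With median centring it was -0.66 and the groups overlapped. Controls 832 and 522, with acinar averages of 4.08 and 4.10, had the highest control values of Bcl3, at 1.28 and 0.89. Control 616, with an acinar average of 2.54 and compressed ratios, had the lowest, at 0.39. A link of Bcl3 to acinar transcripts was not tested. With only controls 881 and 391, which lacked them, the change was -0.70 for Bcl3, -1.30 for Thrsp, -0.57 for Me1 and -0.85 for Gpd2. None of these 4 genes then overlapped between groups. This alternative was chosen after the data were seen, and so few control arrays separate more easily from the hypothyroid ones. No share of all probes without overlap is given for it, so the separation is a description only. Leukocyte genes, which could also carry Bcl3 transcript, averaged 2.01 to 2.58 in control and 2.15 to 2.49 in hypothyroid liver (8 listed, 7 tested).

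Klf9 encodes a zinc-finger factor of the Krüppel-like family, also known as BTEB, that TH induces in brain and other tissues. The brighter of its 2 probes had log2 ratios of 1.52, 1.30, 2.44, 0.79 and 1.74 in controls 881, 832, 522, 616 and 391. In hypothyroid animals 891, 576, 311, 723 and 626 it had 0.86, 1.85, 1.20, 1.60 and 1.10. The groups overlapped over most of their range. The change was -0.24 (limma standard error 0.28, adjusted p = 0.843), with means of 1.56 ± 0.61 (SD, n = 5) and 1.32 ± 0.40 (SD, n = 5). Its 95% interval, 55.3% to 130% of control, takes in a reduction like that of Bcl3 as well as an increase. By exact two-sided permutation p was 0.5.

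The other Klf9 probe read 1.10, 0.67, 2.38, 0.64 and 0.92 in the same controls and 0.73, 1.25, 0.14, 0.39 and 0.56 in the hypothyroid livers. Its change was -0.53 (limma standard error 0.32, adjusted p = 0.730), so the probes had the same sign with different sizes. It was -0.81 without slide 141 and -0.76 with the dyes of that slide as labelled. On both, control animal 522 was the highest of the 10 livers. Without animal 522 the change of the brighter probe was -0.01, and without animal 616 it was -0.43. It was also -0.43 without slide 141, and -0.46 with the dyes of that slide as labelled. Leaving out slide 141 and animal 616 together, an alternative chosen after the data were seen, gave -0.71 with a limma adjusted p of 0.485. Within slides the brighter probe was lower in 2 of 4 and the other probe in 3 of 4.

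Hr encodes Hairless, a nuclear protein that works as a corepressor of TH receptors and is itself induced by the hormone in brain. Its log2 ratio was 0.18, 0.06, 0.19, -0.10 and 0.08 in the controls and 0.13, -0.10, 0.21, 0.08 and 0.17 in the hypothyroid livers, in the same order of animals. The groups covered nearly the same range. The change was 0.02 (limma standard error 0.08, adjusted p = 0.969), with p = 0.786 by exact two-sided permutation. The signal was dim, since the probe was well above background on 2 of 5 control and 2 of 5 hypothyroid arrays. It was above the limit on 5 and 3 arrays. The 95% interval of 89.5% to 114% of control therefore holds for the log2 ratio with its background correction, which draws ratios of dim spots toward 0, and does not bound the change of the transcript. The change was -0.03 without animal 616, 0.06 without slide 141 and 0.08 with the dyes of that slide as labelled.

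**Figure D1:**
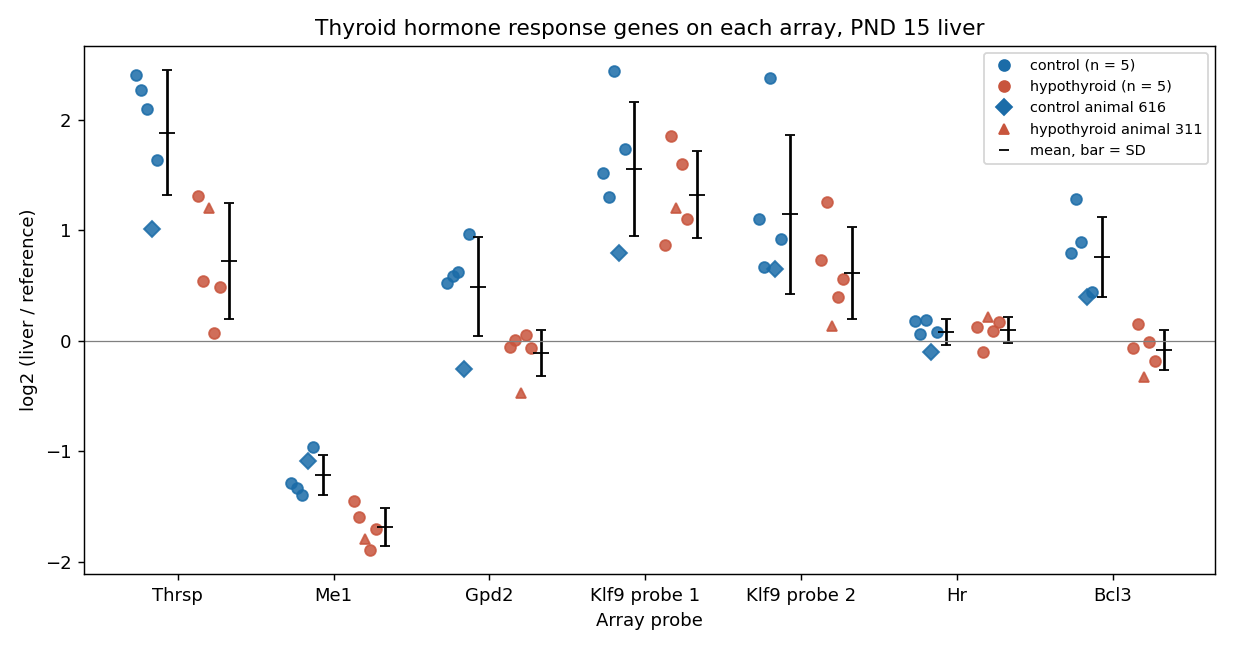
Log2 ratio of liver over reference for each of the 7 probes on each of 10 arrays, with control livers in blue and hypothyroid livers in red, and black bars for the mean and SD (n = 5 each). The groups separate fully for Me1 and Bcl3, separate but for control animal 616 (diamond) for Thrsp and Gpd2, and overlap for both Klf9 probes and Hr.

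How fully the genes responded was compared on the same arrays, as the difference between the changes of 2 genes. In the 15 pairs of the 6 genes, 0 passed a Benjamini-Hochberg adjusted p of 0.05 by the exact two-sided permutation test. With 5 against 5 this test cannot go below 0.00794, and a lone pair at that value cannot pass over 15 pairs. Leaving out slide 141 raises this lowest value. That 0 pairs passed therefore does not show that the changes were equal. The smallest adjusted value was 0.0893, for Hr against Thrsp, Me1, Gpd2 and Bcl3. The Hr change exceeded that of Bcl3 by 0.86 (95% interval 0.41 to 1.33, exact p = 0.00794) and that of Gpd2 by 0.61, although the dim Hr signal limits what this pair can show. Thrsp had the lowest percent of control, but its change was not distinguished from that of the other lowered genes. The change of Thrsp minus that of Bcl3 was -0.32 (95% interval -1.12 to 0.53), minus that of Gpd2 it was -0.57 (-1.39 to 0.34), and minus that of Me1 it was -0.69 (-1.54 to 0.21). Between Me1 and Gpd2 the difference was 0.12 (-0.46 to 0.59). Against Klf9 the Thrsp change differed by -0.93 (-2.01 to 0.22), an interval that leaves room for equal changes and for a 4-fold difference. Without slide 141 the smallest adjusted p over the 15 pairs was 0.214 by the exact permutation test, and with its dyes as labelled it was 1. With the dyes as labelled Klf9, at -0.46, stood next to Thrsp, at -0.47, ahead of Bcl3, Me1 and Gpd2. The order of the genes by percent of control is therefore a description.

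**Figure D2:**
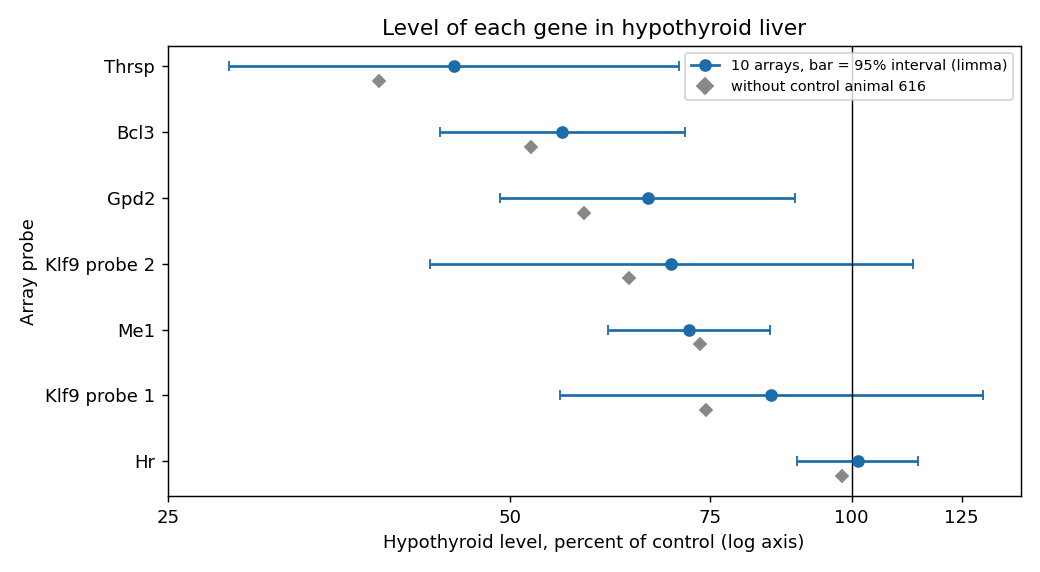
Level of each probe in hypothyroid liver as percent of control on a log axis, with 95% limma intervals over 10 arrays (circles) and the value without control animal 616 (diamonds). The intervals of Thrsp, Bcl3, Gpd2 and Me1 lie below 100% (28.3% to 70.4% for Thrsp), those of the Klf9 probes and Hr span it, and the p-values adjusted over all probes are 0.166 or more.

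Each hypothyroid liver was lower for most of the genes. For the 5 genes other than Hr, hypothyroid animals 891, 311 and 626 were below the control mean for 5 of 5, and animals 576 and 723 for 4 of 5, Klf9 being the exception in both. Control animal 616 was also below it for 4 of 5, and the other controls for 1 or 2 of 5. Hypothyroid animals were below every control for 2 of 5 genes in animal 891 and for 3 of 5 in the others. Across the 10 livers the Pearson correlation of the log2 ratios was 0.78 between Thrsp and Bcl3, 0.74 between Gpd2 and Bcl3 and 0.63 between Thrsp and Gpd2. It was 0.60 between Gpd2 and Klf9, 0.00123 between Me1 and Klf9, and -0.29 to 0.34 between Hr and the other genes. These values describe 10 arrays that share the reference RNA and include the difference between the groups. Over the 8 arrays without slide 141 they were 0.75, 0.74, 0.58 and 0.72 for the first 4 pairs and 0.06 between Me1 and Klf9. With the dyes as labelled they were 0.89, 0.78, 0.65 and 0.56, and -0.90 between Me1 and Klf9. The range between Hr and the other genes was then -0.46 to 0.55, and -0.48 to 0.41 without the slide.

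**Figure D3:**
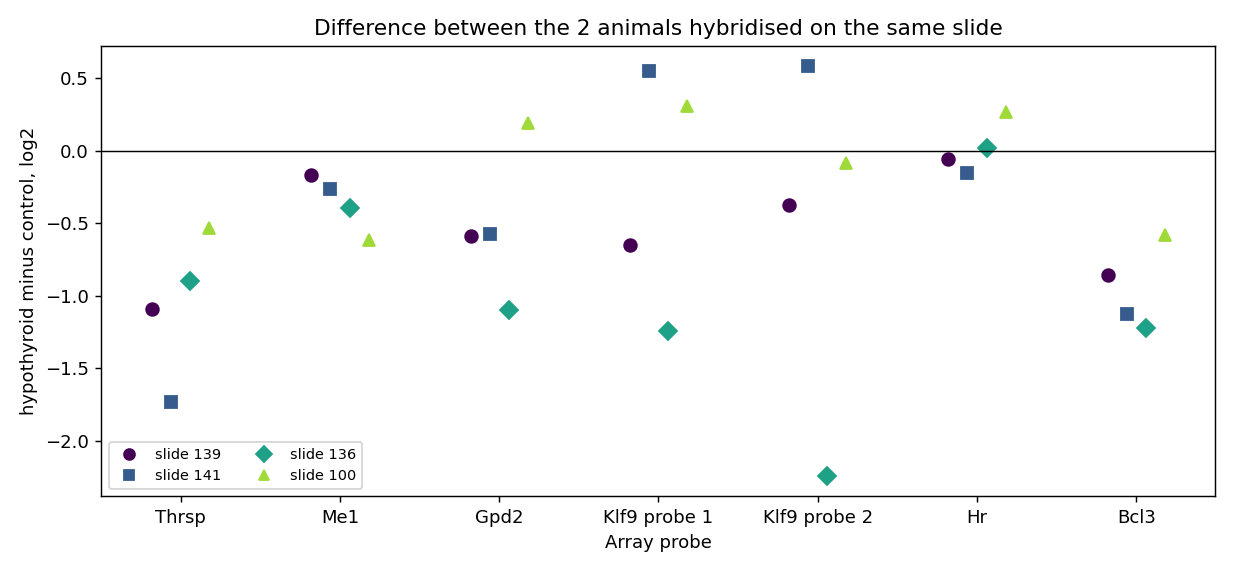
Difference in log2 ratio between the hypothyroid and the control animal on the same slide, for each probe and the 4 slides that held both groups. Thrsp, Me1 and Bcl3 are below 0 on all 4 slides, Gpd2 on 3, and Klf9 and Hr lie on both sides of 0.

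With the channels of slide 141 exchanged, the genes whose log2 ratios were most like those of each member over the 10 livers, among about 20268 tested probes with a symbol, were Fn3k and Mmd for Thrsp (Pearson r of 0.92 and 0.91) and Serac1 and Mgp for Me1 (0.96 and 0.94). Dio1 and Yipf6 were the nearest to Gpd2 (0.93 and 0.91), Foxo1 and Slc29a1 to Klf9 (0.95 and 0.93), Psors1c2 and Irs3 to Hr (0.95 and 0.94), and Ppp1r14a and Slc23a1 to Bcl3 (0.98 and 0.97). With 10 arrays and so many probes, high values of r were found for every member. Dio1, the type 1 deiodinase of liver and a known TH target, had a log2 ratio of 5.23 ± 0.73 (SD, n = 5) in control and 4.29 ± 0.50 (SD, n = 5) in hypothyroid liver. Its change was -0.94 (limma standard error 0.34, adjusted p = 0.604), with overlapping groups, and -1.27 without animal 616, -0.96 without slide 141 and -0.60 with its dyes as labelled.

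Other genes that TH is known to regulate in liver did not share a direction. The list was not split by whether TH raises or lowers a gene. Its median is therefore not of the same kind as that of the members, whose transcripts are known to rise with TH. Of 28 listed, 26 were tested, and 0 had a limma adjusted p below 0.05. At an unadjusted p below 0.05, 6 were lower, against 4.08% of all probes, and 2 were higher, against 3.34% of all probes. Their median change was 0.17, against -0.54 for the 6 members and -0.01 for all probes, and it was -0.01 without animal 616, 0.17 without slide 141 and 0.16 with the dyes of that slide as labelled. The groups did not overlap, with higher hypothyroid values, for Acly at 0.33 (limma adjusted p = 0.418), which makes cytosolic acetyl-CoA, and for G6pc at 0.37 (adjusted p = 0.673), which releases glucose. Without animal 616 the changes were 0.29 for Acly and 0.18 for G6pc. The SD of G6pc was 0.0045 in hypothyroid and 0.43 in control liver (n = 5 each). Over all probes 1.07% had higher hypothyroid values without overlap.

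Genes that work beside Thrsp and Me1 in supplying NADPH and citrate for fat synthesis (12 listed, 11 tested) had a median change of 0.10, with 5 lower and 6 higher and 0 past the adjusted threshold. The median was -0.02 with 6 lower without animal 616, 0.14 without slide 141 and 0.12 with its dyes as labelled. Fasn, the fatty acid synthase, was at -0.33 (limma standard error 0.14, adjusted p = 0.651). Acaca, which makes malonyl-CoA, was at 0.10 (limma adjusted p = 0.766). Mid1ip1, the relative of Thrsp that activates it, was at -0.19 (limma adjusted p = 0.814). The other malic enzymes, Me2 and Me3, were at -0.34 and 0.21, with overlapping groups, and at -0.10 and 0.05 without animal 616.

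Among genes of the NADH shuttles (9 listed, 9 tested) 2 were lower and 7 higher, with a median of 0.14 and 0 past the adjusted limma threshold. The median was 0.05 with 4 lower without animal 616, 0.20 without slide 141 and 0.17 with its dyes as labelled. Gpd1, the cytosolic partner of Gpd2, was at 0.28 (limma standard error 0.18, adjusted p = 0.736) and at 0.09 without animal 616. Got2, the mitochondrial aspartate aminotransferase of the other shuttle, had no overlap, at 0.39 (limma adjusted p = 0.650), and was at 0.22 without animal 616.

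The Krüppel-like family (16 listed, 15 tested) had a median change of -0.01, with 8 lower and 7 higher and 0 past the adjusted limma threshold. The median was -0.06 with 10 lower without slide 141 and -0.08 with 11 lower with its dyes as labelled. Klf13, a close relative of Klf9, was at -0.49 (limma standard error 0.18, adjusted p = 0.612), with a control range of -0.32 to 0.86 and a hypothyroid range of -0.48 to -0.15. Klf15, a factor of fasting metabolism, was at 0.26 (adjusted p = 0.752). The list of Hr relatives and the TH receptor corepressor complex (9 listed, 7 tested) had a median of -0.06 with 0 past the adjusted threshold (0.04 without animal 616, -0.02 without slide 141, -0.04 with its dyes as labelled), and Kdm3a, the demethylase related to Hr, was at -0.06 (limma adjusted p = 0.907).

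For Bcl3, the other genes of the NF-kappaB and I-kappaB family (10 listed, 8 tested) had a median of -0.15, with 6 lower and 2 higher and 0 past the adjusted limma threshold. Nfkb2, which encodes the p52 partner of Bcl3, was at -0.19 (limma standard error 0.17, adjusted p = 0.790). Nfkbia was at -0.31 (limma standard error 0.19, adjusted p = 0.728). Without animal 616 they were at -0.03 and -0.19, and the median of the list was -0.10. That median was -0.17 without slide 141 and -0.12 with its dyes as labelled. No gene of this list had a change as low as that of Bcl3, the lowest being -0.36.

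**Figure D4:**
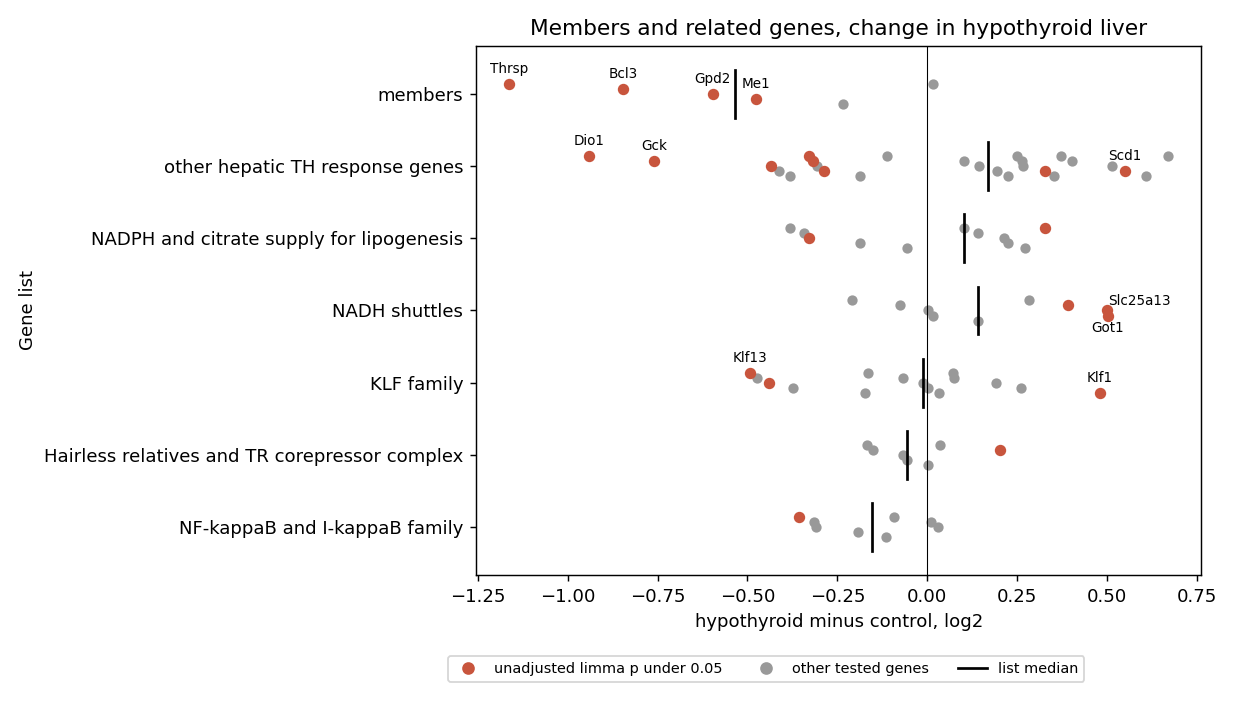
Change in log2 ratio between hypothyroid and control liver for the 6 members and for each tested gene of 6 related lists, with red for an unadjusted limma p under 0.05 and a black line for the median of a list. The members' median is -0.54, while the medians of the other lists lie between -0.15 and 0.17.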

How the data were processed

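Hepatic mRNA levels were measured on 2-colour 4x44K arrays in 5 control and 5 hypothyroid livers, grouped by the sample labels. For each spot the authors deposited a median intensity per channel and the scanner software's processed intensity, not normalized between arrays. The deposited intensity values were read in R 4.3.3 with the data.table package (version 1.17.8). Median intensities were corrected with normexp (offset 50) and loess (span 0.2) in limma 3.58.1. Outlier and control spots were left out and repeated spots averaged. A probe was tested if its liver channel exceeded a background limit on 4 of 5 arrays of a group, which left 32053 of 41174 probes. The limit was set from the negative control spots, at their mean after 5% trimming and 3 SDs above it. Symbols came by accession from RefSeq for 23374 probes. All 10 arrays entered 1 limma fit without slide, with Benjamini-Hochberg adjustment over all tested probes and a threshold of 0.05. The brightest probe stood for a gene. Single values and pairs of genes were compared by exact permutation tests. Scripts were tested on simulated data. The number of arrays limits the precision. With normexp and its offset, ratios of dim spots are drawn toward 0.

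The members, the gene lists and the exchange of channels on slide 141 were chosen with earlier results of these data known. The genes named were all members, listed genes past the adjusted threshold or without overlap, Dio1, Fasn, Acaca, Mid1ip1, Gpd1, Nfkb2, Nfkbia, Klf13, Klf15 and Kdm3a, and the 2 genes most like each member. The result of 1 listed gene is not reported here. Me2, Me3, Acta1 and Mylpf were named after their values were seen. Lists were related TH response genes, NADPH and citrate supply, NADH shuttles, the Krüppel-like family, Hr relatives and corepressors, the NF-kappaB family, and markers of hepatocytes, acinar cells, adipocytes, erythroid cells, leukocytes and skeletal muscle. Alternatives were no background correction, processed intensities, median centring, a loess span of 0.3, other filters, slide as a block (statmod 1.5.0 for the random block), the dyes as labelled, arrays left out and probes averaged to genes. The 4 TLDA files of miRNA threshold cycles, and in them the authors' own comparison, were not used here. The array annotation names mm8, so no gene coordinates of GRCm38.p6 were joined to probes.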

Additional observations from a re-analysis of the deposited data

Results flagged for a closer look

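For 7 probes and 2 groups, 14 groups of 5 livers were checked for a liver far from the others, and chance alone marks about 5% of groups. In hypothyroid liver, the Gpd2 value of animal 311 was the lowest, and its gap to the next was 0.783 of the whole range of the group, above the limit of 0.71. In control liver, the second Klf9 probe was highest in animal 522, with a gap of 0.735 of the range. Without animal 522 the change of the brighter Klf9 probe was -0.01 in place of -0.24.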

How the results depend on the processing

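The changes of Thrsp, Me1, Gpd2, Klf9 and Bcl3 kept their sign in the 11 alternatives on processing. The other filters could not alter these changes, nor could averaging probes for a gene with 1 probe. Klf9 was close to 0 with median centring, at -0.0049. Adjusted limma p-values there were 0.180 or more for Thrsp, 0.169 or more for Me1 and 0.354 or more for Gpd2. They were 0.701 or more for Klf9 and 0.0770 or more for Bcl3 over the 11 alternatives. Hr changed sign with no background correction (-0.011), with processed intensities (-0.043) and with median centring (-0.012). In alternatives chosen after seeing the data it also did, at -0.0027 without slide 141 and animal 616, and at -0.032 with only the 2 controls low in acinar genes. With all 10 arrays above the limit Hr was not tested. The number of probes with a limma adjusted p below 0.05 was 2, all lower, and became 1 with processed intensities, 1 with median centring and 1 in each of the 2 alternatives chosen later. It was 14 with slide as a random block and 0 with slide as a fixed block (2234 at an unadjusted p below 0.05), with the dyes as labelled (110) and without slide 141 (2434).

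Leaving out each array in turn gave 1 to 30 such probes, the 30 without control animal 616. The ranges of the change were -1.38 to -1.0 for Thrsp, -0.53 to -0.41 for Me1, -0.78 to -0.48 for Gpd2, -0.43 to -0.01 for Klf9, -0.028 to 0.066 for Hr and -0.94 to -0.72 for Bcl3, and 0 pairs of members passed throughout. Gpd2 passed the threshold only without animal 616 (adjusted p = 0.0450). Pairs have no value of their own with other filters or with slide as a block, which leave the log2 ratios as they are. The exact test left pairs little room to pass, since a lone pair at its lowest p could not.

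No paired analysis was possible because of the replicate numbers of the array animals, which the groups do not share, and the TLDA samples, whose labels do share them, were not tested. Animals on the same slide were compared within slides and with slide as a block. Slide and scan day coincide, and 2 of 6 slides held 1 group. Signal over background limits Hr and the reference channel of Thrsp most.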

Other observations

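Erythroid genes (8 listed, 4 tested) averaged 1.37 to 2.57 in control and 1.99 to 2.44 in hypothyroid liver, with a median change of 0.07. Skeletal muscle genes (8 listed, 7 tested) averaged -0.94 to -0.34 in control, with animal 616 the highest, and -1.09 to -0.91 in hypothyroid liver. Of the 7, 6 had a lower mean in hypothyroid liver, 2 of them (Acta1 at -0.63 and Mylpf at -0.26) at an unadjusted limma p below 0.05, against 4.08% of all probes, and 0 passed the adjusted threshold. Their median change was -0.22, and -0.12 without animal 616.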
